A study of Homo sapiens with 2 samples.

Results

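The mitochondrial ribosomal protein genes are the nuclear genes whose symbols begin with MRPL or MRPS followed by a number. Membership was set by that spelling alone, and 76 of the 47352 gene names in the coverage table matched it. The group itself was chosen with earlier results of these data known. For each gene the longest listing in the table was used, since 24 of the 76 are listed more than once. The data came from GM12878, an established human lymphoblastoid cell line, that is, B cells immortalised with Epstein-Barr virus, grown without treatment in RPMI medium with 15% serum. RNA was cut into fragments, and 1 library was made from the fragments as they were (input) and 1 from the fragments held by an antibody against N6-methyladenosine, or m6A (IP). No replicate was used for either library, so no difference below has a replicate check, no test was run, and intervals cover counting error only.

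N6-methyladenosine is a methyl group on adenosine bases inside mRNA, placed by the METTL3 and METTL14 enzyme complex and known to lie mostly near stop codons, in last exons and in long internal exons. The mitochondrial ribosome translates the few mRNAs encoded by mitochondrial DNA, which specify subunits of the respiratory chain and ATP synthase. Its RNAs come from mitochondrial DNA, whereas its proteins are made in the cytosol from nuclear mRNAs and imported. MRPL genes encode mostly proteins of the large subunit, which forms peptide bonds, and MRPS genes mostly those of the small subunit, which decodes the mRNA. Some of these proteins have counterparts in bacterial ribosomes and others exist only in mitochondria.

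From the coverage steps, 51.7 M reads were recovered for the input library and 58.5 M for the IP library. All 6 B cell markers checked were measured, at input coverages of 9.93 to 775, and none of the 4 markers of pluripotent stem cells exceeded 0.153. Of 3 T cell markers and 3 fibroblast markers, 1 of each passed the input minimum, CD3E at 1.52 and THY1 at 1.69. The labels give human as organism and GM12878 as line, but the source name speaks of embryonic stem cells of the mouse, which these marker levels go against.

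All 76 mitochondrial ribosomal protein genes had a mean input coverage of at least 1, the minimum for a gene to count as measured, which 10756 gene names passed. Coverage is the authors' scaled read depth per base. It ranged among the members from 1.19 in MRPL1, a protein of the large subunit, to 30.6 in MRPS34, a 25.7-fold range. The median member stood at 7.80, against 3.75 over all measured genes. MRPL22 (1.74) and MRPL19 (2.25) were the next lowest, and MRPL37 (23.5) and MRPL12 (20.9) the next highest. MRPL12 forms the flexible stalk that recruits translation factors. The members took up 0.312% of the input coverage and 0.317% of the IP coverage over all listings. A member had between 319 and 8295 reads in the input and between 153 and 9427 in the IP.

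Promoter sequences, from 250 bases before to 50 bases after the annotated start, were matched by symbol in RefSeq (GRCh38.p14) for 68 of the 76 genes. They are shown because the genes share letters there that the choice of members did not use. Of 8 motifs searched on both strands, chosen after longer and shorter forms had been looked at, CCGGAAG (reverse CTTCCGG), the core that ETS-family proteins such as GABP recognise, stood in 28 of the 68 (41.2%, exact Clopper-Pearson 95% interval 29.4 to 53.8), against 10.7% of 27305 promoters and 14.2% of 15842 protein-coding ones. AAGATGGCG (reverse CGCCATCTT), the core of the YY1 motif, stood in 13 of the 68 (19.1%, 10.6 to 30.5), against 1.85% and 2.74%. Of its 14 matches, 12 lay on the gene's own strand and 10 after the start site. Those 10 are shown as 30-base segments on the gene's strand, with GRCh38.p14 coordinates and the motif in capitals. All 10 run in the direction of the gene, and the last of them begins at base 36 after the start.
MRPL46, chr15:88467361-88467390, minus strand: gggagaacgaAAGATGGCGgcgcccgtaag
MRPL50, chr9:101398576-101398605, minus strand: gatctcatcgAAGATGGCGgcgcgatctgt
MRPS30, chr5:44808950-44808979, plus strand: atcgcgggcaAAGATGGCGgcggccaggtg
MRPS18A, chr6:43687763-43687792, minus strand: taggtttttgAAGATGGCGgccctcaaggc
MRPL38, chr17:75904859-75904888, minus strand: ggccggagggAAGATGGCGgcgccctggtg
MRPS18B, chr6:30617853-30617882, plus strand: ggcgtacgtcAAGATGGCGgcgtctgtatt
MRPS10, chr6:42217833-42217862, minus strand: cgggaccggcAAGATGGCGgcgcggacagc
MRPL42, chr12:93467512-93467541, plus strand: ggattgaaacAAGATGGCGggttcgtggtg
MRPS24, chr7:43869479-43869508, minus strand: cgcttggcccAAGATGGCGgcctccgtgtg
MRPL22, chr5:154941093-154941122, plus strand: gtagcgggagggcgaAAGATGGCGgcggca
The other 4 matches lay before the start, both of those in MRPL52 on its own strand and 1 each in MRPL32 and MRPL36 on the other.

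The CCGGAAG motif was found 37 times in its 28 promoters, 17 times on the gene's own strand, at a median of 22 bases before the start. MRPS34, the member with the highest input coverage, holds 3 matches, all as CTTCCGG, and MRPL27, a protein next to the site of peptide bond formation, holds 2 on its own strand. Their 30-base segments are shown as examples of repeated matches, again with the motif in capitals.
MRPS34, chr16:1773187-1773216: cctcttcctcgCTTCCGGccgcgaccgaac
MRPS34, chr16:1773145-1773174: gacaccggcctCTTCCGGtgacttccggcc
MRPS34, chr16:1773135-1773164: tcttccggtgaCTTCCGGccggaccgctga
MRPL27, chr17:50373218-50373247: ccacgcagggcCCGGAAGtagatctcctga
MRPL27, chr17:50373174-50373203: acttttcgagaCCGGAAGtgagtgatcgaa
Both genes lie on the minus strand. The last of the MRPS34 segments overlaps the one above it. Of the other searched motifs GGGCGG stood in 42 of the 68 (61.8%, 49.2 to 73.3), above the 44.6% of all promoters and close to the 58.5% of protein-coding ones. Set against protein-coding promoters, CCAAT stood in 20 (29.4%, against 36.4%), CACGTG in 7 (10.3%, against 8.88%), GCATGCGC in 6 (8.82%, against 4.26%), TATAAA in 3 (4.41%, against 9.63%) and TGACGTCA in 0 (up to 5.28%, against 2.59%). A match is a description of letters. An enriched region of m6A signal, defined next, was found in 7 of 28 genes with CCGGAAG (25%) and 11 of 40 without (27.5%), and in 4 of 13 with AAGATGGCG (30.8%) and 14 of 55 without (25.5%). The widest gaps were those of CCAAT, with a region in 10 of 20 genes that hold it (50%) and 8 of 48 that do not (16.7%), of TATAAA, with 0 of 3 and 18 of 65 (27.7%), and of GGGCGG, with 14 of 42 (33.3%) and 4 of 26 (15.4%). These motifs were picked from the 8 after the values were seen. The same split was not made over all measured genes, and none of the 8 motifs was tested for this. The median input coverage was 8.59 with CCGGAAG and 7.83 without. It was 10.6 with CCAAT and 7.75 without, 9.81 and 6.13 for GGGCGG, and 10.6 and 7.89 for TATAAA. With AAGATGGCG it was lower, 6.40 against 8.42 without.

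For the m6A signal the authors' window score was used. It is the log2 of the IP coverage of a window over its gene's median IP coverage, divided by the same quantity for the input, with 1 added to each. A window is 100 bases long and starts 50 bases after the one before. An enriched region is a run of at least 2 windows that each score at least 2, a 4-fold excess, and the gene-level score is the highest mean of 2 consecutive windows. The peak of a region is its window of highest score, which need not be that of highest coverage. By this rule 21 of the 76 members held a region, 27.6% (17.99 to 39.1), where the same rule called 44.2% of the 10756 measured genes. The interval of the members lies below that background, but the members were also covered more deeply than the typical gene, and regions were called less often in well covered genes. The part of coverage in the difference from all genes was not tested. Among genes with a mean input of at least 5, 17 of 57 members held a region (29.8%, 18.4 to 43.4), against 34.1% of all such genes, which lies inside the members' interval. At an input of 5 to 10 the shares were 35.7% of 28 members and 42.9% of all genes, at 10 to 40 they were 24.1% of 29 and 29.7%, and at 1 to 5 they were 21.1% of 19 (6.05 to 45.6) and 50.8%. MRPL35, MRPS25, MRPL44 and MRPL43 were the 4 members with a region in this weakly covered class. The median gene-level score was 1.27 among the members and 1.81 over all measured genes, and at an input of at least 5 it was 1.46 and 1.497. Of the members' 2523 windows, 89 (3.53%, 2.84 to 4.32) scored at least 2, against 5.75% of all windows of measured genes. Overlapping windows share reads, so this last interval is too narrow.

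The 21 genes held 26 regions, 1 each in 16 genes and 2 each in 5, MRPL35, MRPS25, MRPS12, MRPL50 and MRPS30. A score of 3 or more was reached by 7 members, 27 lay between 1 and 2, and 28 lay under 1. For 20 members the counting interval of the score lay wholly above 2. The exception with a region was MRPL43, at 2.19 (1.84 to 2.54), whose peak window had an input coverage of 1.103. These intervals take the 2 scored windows as given. They do not cover the choice of those windows as the highest of the gene, which favours high scores. Just outside the threshold stood MRPS18A at 1.99 and MRPL14 at 1.98, each with 1 enriched window, then MRPS28 at 1.82 and MRPL53 and MRPL49, both at 1.80.

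**Figure D1:**
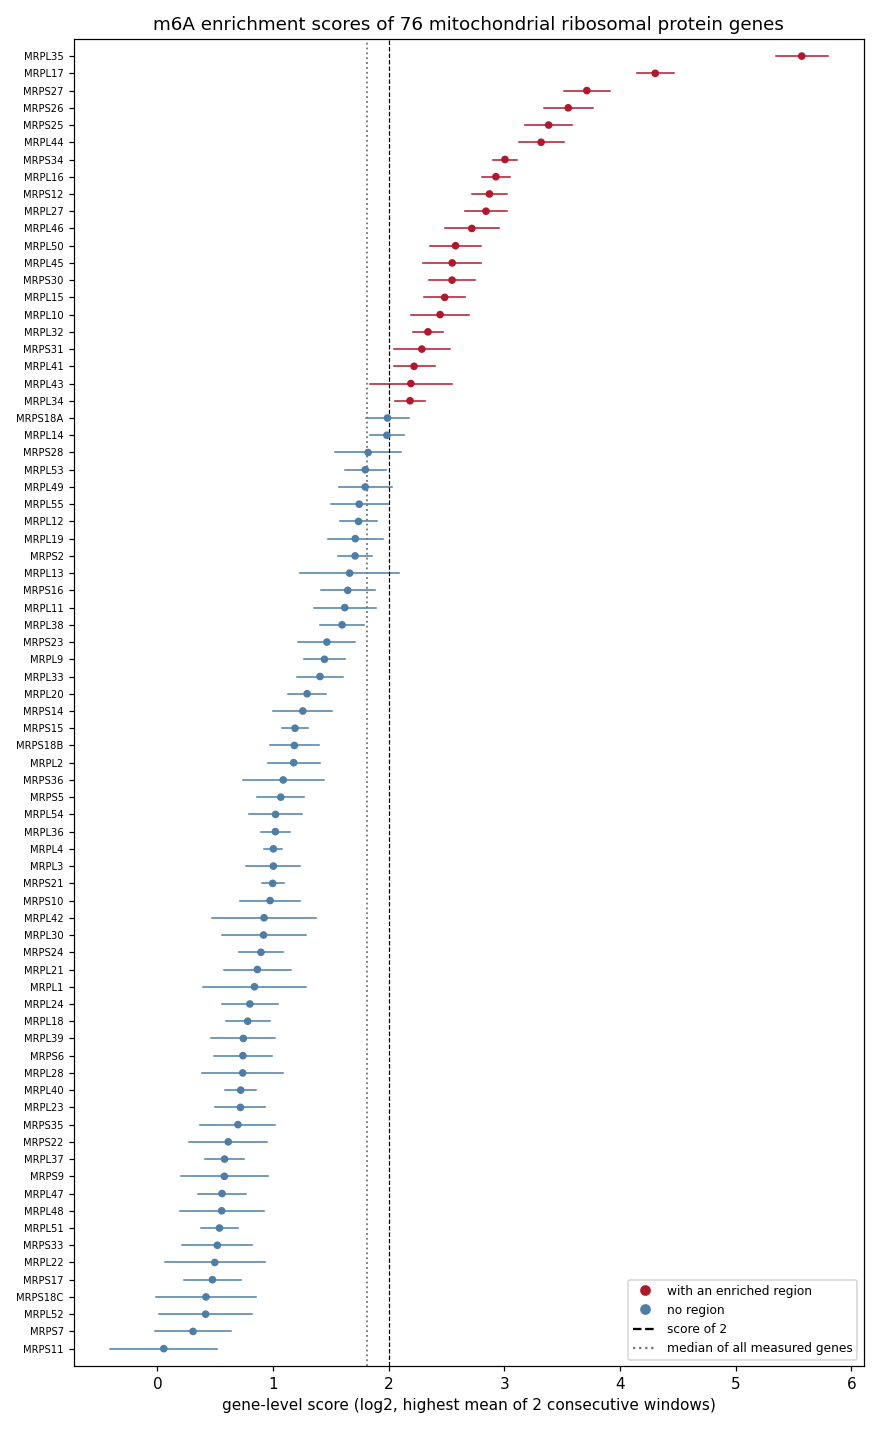
Gene-level m6A score (log2, horizontal axis) of each of the 76 mitochondrial ribosomal protein genes, with bars for the 95% counting interval, the score of 2 as a dashed line and the median of all measured genes as a dotted one. The 21 genes with an enriched region reach from 2.18 in MRPL34 to 5.57 in MRPL35, which stands apart from MRPL17 at 4.30.

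MRPL35, a large-subunit protein with a bacterial counterpart, had the highest score of the 76, 5.57 (5.35 to 5.79). Its peak window had a coverage of 253.8 in the IP, where the input had 4.001. Averaged over the whole listing the IP stood at 14.3 and the input at 2.97, so the signal was concentrated in a short stretch of an exon of 58 windows. A smaller region in the same exon peaked at 17.95 in the IP and 2.74 in the input. MRPL17, another large-subunit protein with a bacterial counterpart, followed at 4.30 (4.14 to 4.46), with 254.2 in the IP and 12.6 in the input at its peak. Its gene medians were 0.482 and 0.593, both below the 1 that the score adds, so the centring on the gene moved this score little: without it the score was 4.20.

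The next 3 scores belonged to small-subunit proteins found only in mitochondria. MRPS27, a pentatricopeptide repeat protein, scored 3.71, with 133 in the IP and 7.76 in the input at its peak. MRPS26 scored 3.55, with 132 and 5.94. MRPS25 scored 3.38, with 123 and 9.20, and held a second region in the same last exon of 83 windows. The first of these regions peaked 300 bases and the second 2950 bases after the upstream edge of that exon, the largest distance among the members.

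MRPL44, a large-subunit protein with a ribonuclease III-like fold, scored 3.32, and its region lay in exon 2 of 4. At the peak of this region the IP coverage was 111 and the input 7.40. MRPS34 scored 3.004, with 270 in the IP and 34.2 in the input, so the member with the highest input coverage was also among the 7 highest scores. The median input was nearly the same with and without a region, 7.83 in the 21 members with a region and 7.77 in the 55 without.

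Among proteins near the functional centres of the ribosome, MRPL16 scored 2.93, with 254 in the IP and 23.98 in the input. MRPS12, the counterpart of the bacterial protein that governs decoding accuracy, scored 2.87 and held regions 350 and 600 bases into its last exon. MRPL27 scored 2.84, with 216 in the IP and 9.11 in the input, in a last exon of 9 windows. MRPL10, which anchors the stalk formed by MRPL12, scored 2.44, while MRPL12 itself scored 1.74 and held no region. MRPL32, a protein matured by a mitochondrial protease before assembly, scored 2.34, with 175 in the IP and 24.2 in the input.

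The remaining genes with a region were mostly mitochondria-specific proteins of the large subunit. MRPL46 scored 2.72, MRPL50 2.58, MRPL45, which lies near the exit of the peptide tunnel, 2.55, and MRPL41 2.22. MRPS30, named for the small subunit but found in the large one, scored 2.55, with 70.3 in the IP and 11.9 in the input, 50 bases into its last exon. MRPS31 scored 2.29, with its region in the second exon of the gene. The 2 others with bacterial counterparts were MRPL15 at 2.48 and MRPL34 at 2.18.

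By origin, 12 of 29 mitochondria-specific proteins held a region (41.4%, 23.5 to 61.1) and 9 of 46 with a bacterial counterpart (19.6%, 9.36 to 33.9). The intervals overlap, and the difference was not tested. The median scores were 1.80 and 1.18, and the lengths were similar, with medians of 29 and 25.5 windows. By subunit, 15 of 49 large-subunit proteins (30.6%) and 6 of 26 small-subunit proteins (23.1%) held a region, with wide intervals of 18.3 to 45.4 and 8.97 to 43.6. MRPS36, which RefSeq now names KGD4, was put in no role.

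The members are short genes. Their median was 27.5 windows, with a range of 13 to 159, and 5 exons, where all measured genes had medians of 55 windows and 8 exons. None of the 76 had an internal exon of more than 10 windows, which 12.7% of all measured genes had. The median longer terminal exon spanned 12.5 windows among the members and 22 over all.

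Among genes of like length the members did not stand uniformly lower. Of the 19 members of 13 to 20 windows 21.1% held a region, where 10.3% of all measured genes of that length did. At 21 to 30 windows the shares were 28.0% of 25 members and 19.5% of all, and at 31 to 50 windows 30.4% of 23 and 34.0%. Members of 51 or more windows held regions in 3 of 9 cases, MRPL35, MRPS27 and MRPS25, against 60.7% of genes of 51 to 159 windows. MRPL19, the longest member at 159 windows, scored 1.71 and held none. With so few genes in each class these shares are uncertain: the last has an interval of 7.49 to 70.1.

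**Figure D2:**
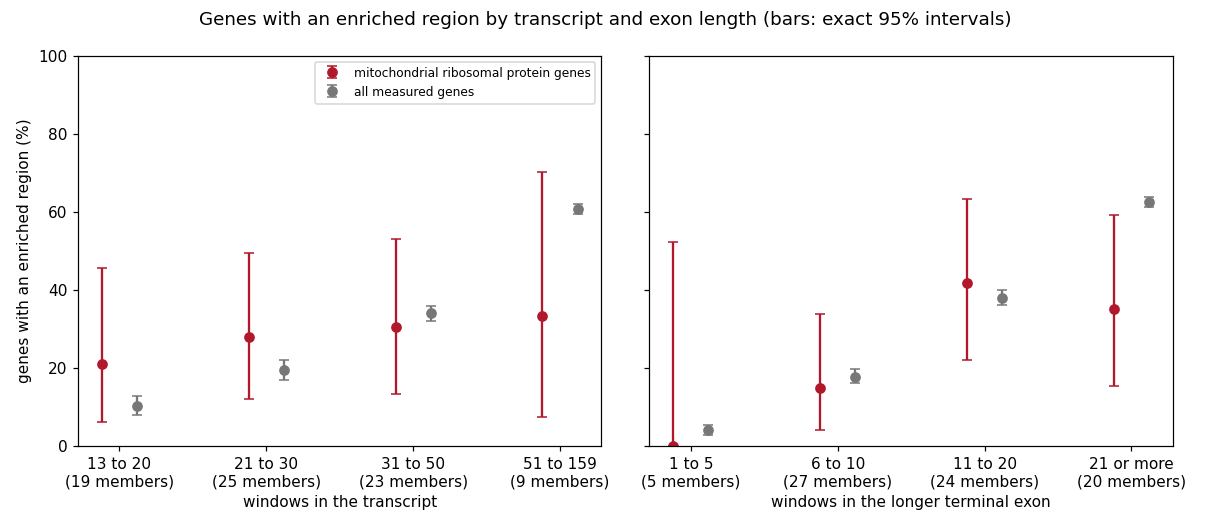
Percent of genes with an enriched region (vertical axis) by number of windows in the longest listing (horizontal axis), on the left, and by windows in the longer terminal exon on the right, for the 76 members (red) and all measured genes (grey), with bars for exact 95% intervals. By number of windows, all genes climb from 10.3% to 60.7% over the 4 classes and the members from 21.1% to 33.3%.

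Sorted by the longer of the first and last exons, 0 of 5 members with 1 to 5 windows held a region, against 4.01% of all genes. The shares were 4 of 27 (14.8%) against 17.8% at 6 to 10 windows and 10 of 24 (41.7%) against 38.0% at 11 to 20. At 21 or more windows 7 of 20 members (35.0%, 15.4 to 59.2) held one, against 62.6%. Up to 20 windows the share of all genes lay inside the members' interval, and in the longest class it lay above it.

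Where the direction of the gene was known, the regions lay mostly in the last exon. Exons are numbered in genomic order in the table, and strands from RefSeq gave the direction of 68 members. Of the 22 regions in those genes 20 lay in the last exon (90.9%, 70.8 to 98.9), against 68.3% of 5689 regions in all genes with a strand. None lay in a first exon, and the 2 in internal exons were those of MRPL44 and MRPS31. The peak of a last-exon region lay a median of 350 bases after the exon's upstream edge among the members and 400 over all genes. Within 500 bases of that edge lay 17 of the 20 (85.0%, 62.1 to 96.8), against 60.0%. The members' regions had a median of 3 windows and all regions 4, and the median peak stood at an IP coverage of 127 over an input coverage of 8.75, against 61.3 and 4.20.

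**Figure D3:**
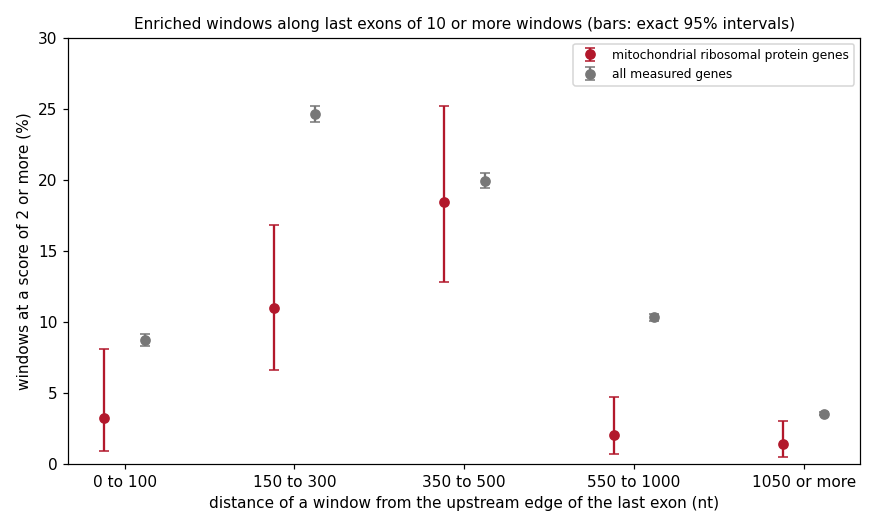
Percent of windows scoring at least 2 (vertical axis) by distance of the window from the upstream edge of the last exon (horizontal axis, bases), for last exons of at least 10 windows, in members (red) and in all measured genes (grey), with bars for exact 95% intervals. The members are highest at 350 to 500 bases (18.4%) and all genes at 150 to 300 bases (24.6%).

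In last exons of at least 10 windows, 3.25% of the members' windows in the first 100 bases were enriched, 10.98% at 150 to 300 bases, 18.4% at 350 to 500, 2.03% at 550 to 1000 and 1.40% beyond. Over all genes the shares were 8.72%, 24.6%, 19.9%, 10.3% and 3.53%. The members came closest to all genes at 350 to 500 bases and were under 0.5 of them in the other classes. Overlapping windows of few genes make up each share. Short internal exons, those spanning no more than 5 windows, held 0 enriched windows of 612 in the members (up to 0.601%), against 0.0784% over all genes. Longer internal exons held 7 of 41 (17.1%), all in MRPL44 and MRPS31, close to the 15.9% over all genes. First exons held 0 enriched windows of 308 (up to 1.19%), against 3.10%.

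**Figure D4:**
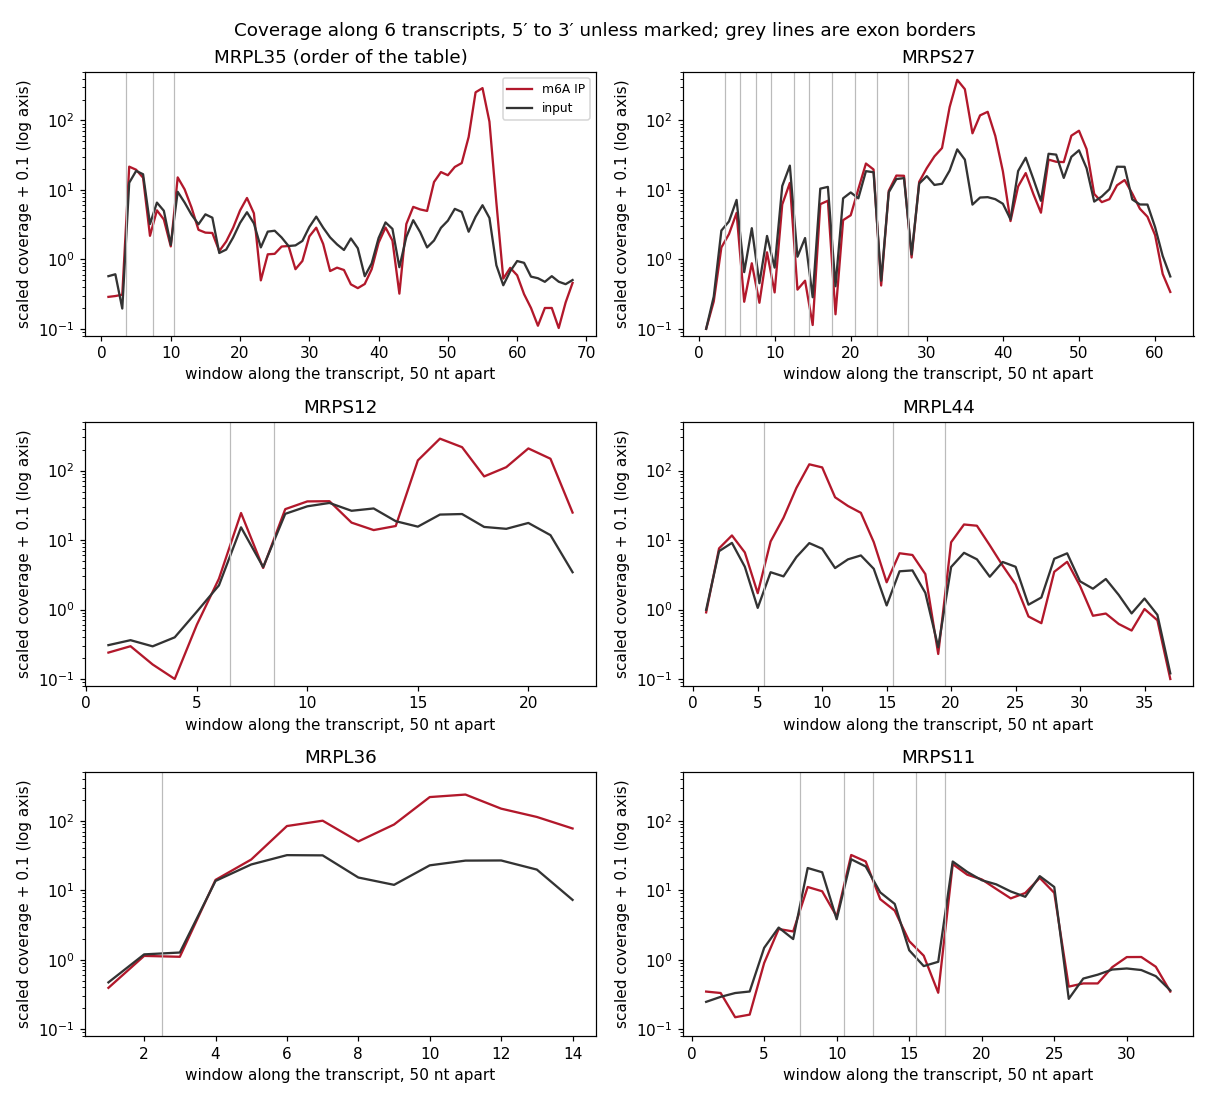
IP and input coverage (vertical axis, scaled coverage with a small constant added, log axis) along the windows (horizontal axis) of MRPL35, MRPS27, MRPS12, MRPL44, MRPL36 and MRPS11, from the 5′ to the 3′ end except in MRPL35, whose strand is not known. Grey lines mark exon borders. The IP rises far above the input over a few windows in MRPL35 (253.8 against 4.001 at the peak), while in MRPL36 it lies above the input over most of the transcript.

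Because the score is centred on each gene, a signal that covers most of a short transcript lowers its own score. The ratio of mean IP to mean input coverage over the whole listing does not have this property. Its median was 0.28 on the log2 scale among the members and 0.44 over all measured genes. The counting interval lay above 0 in 47 members, below 0 in 21 and included 0 in 8. A ratio of 0 means equal scaled coverage, so its place depends on how each library was scaled. A coverage of 1 stood for 5.84 reads per base in the input, from 51.7 M reads. In the IP it stood for 3.71 reads per base, from 58.5 M reads. The counts above and below 0 therefore do not give the number of members enriched in the IP. A ratio of at least 1, or 2-fold in scaled coverage, was reached by 20 members (26.3%, 16.9 to 37.7), against 35.7% of all measured genes. This limit was chosen after seeing the data. With the median coverage in place of the mean, the members stood at -0.06 and all genes at -0.21, so the sign of both medians and their order depend on this choice. The order also turned with the mean where an input of at least 5 was required: the members then stood at 0.36 and all genes at 0.16.

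MRPL50, at 2.80, had the highest ratio, with mean coverages of 44.4 in the IP and 6.40 in the input. MRPL27 followed at 2.69 (54.5 and 8.41), MRPL34 at 2.47 (70.7 and 12.8) and MRPL36 at 2.32 (83.1 and 16.6). The lowest ratios were those of MRPL13 at -0.79, MRPL23 at -0.68 and MRPS22 at -0.67.

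Of the 20 members with a ratio of at least 1, 14 held a region and 6 did not (30%, 11.9 to 54.3), where 549 of 3844 such genes in the whole table (14.3%) held none. The 6 were MRPL14, MRPS28, MRPS2, MRPL33, MRPL36 and MRPS21, listed after their values were seen. All 6 have bacterial counterparts, and by this measure 13 of 46 proteins with a bacterial counterpart (28.3%) and 7 of 29 mitochondria-specific ones (24.1%) were called, so the order of the 2 origins seen with regions was not seen here. MRPL36, the counterpart of a small zinc-binding protein of the bacterial large subunit, had a score of 1.02, with gene medians of 80.6 in the IP and 17.4 in the input that already carry the excess. In the window of its highest IP coverage, 238 against an input of 26.6, the score was 0.97. At its 5′ end the coverages were nearly equal, 13.99 and 13.51 in 1 window, and the score there was -2.10. MRPL36 held 4 of the 5 member windows that scored -2 or less, and MRPL12 the other, where 0.329% of all windows of measured genes did.

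Without the centring on the gene 25 members held a region, against 45.5% of all measured genes, and 19 of these 25 also held one with it. MRPL12, MRPL14, MRPL36, MRPS18A, MRPS2 and MRPS28 were gained, and MRPL15 and MRPS31 were lost. The uncentred score of MRPL36 was 3.17 and that of MRPL12 2.77.

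**Figure D5:**
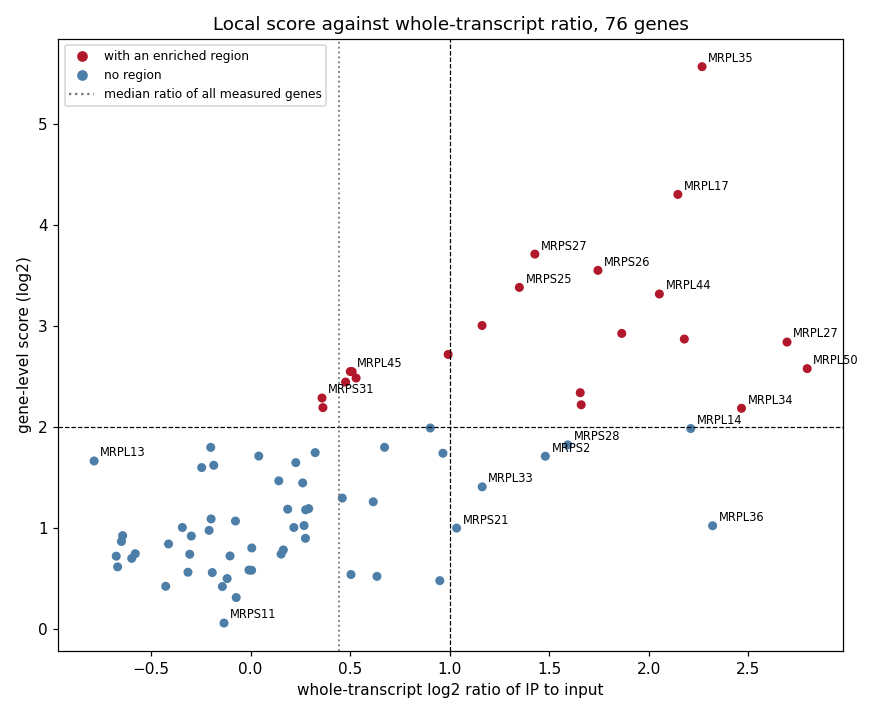
Gene-level score (vertical axis, log2) against the whole-transcript log2 ratio of IP to input coverage (horizontal axis) for the 76 members, red with a region and blue without. Dashed lines stand at a score of 2 and a ratio of 1, and a dotted line at the median ratio of all measured genes. The 6 genes with a ratio of at least 1 and no region, MRPL36 among them at 2.32 and 1.02, lie in the lower right.

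No window scored 2 or more in 53 of the 76 members. The flattest was MRPS11, at a score of 0.05 with mean coverages of 6.5 in the IP and 7.13 in the input, followed by MRPS7 at 0.31 with 8.99 and 9.45 and MRPL52 at 0.42. MRPS11 and MRPS7 are small-subunit proteins with bacterial counterparts. The 3 paralogs of the MRPS18 family differed: MRPS18A scored 1.99 with a ratio of 0.90, MRPS18B 1.18 and MRPS18C 0.42. Their mean input coverages were 11.9, 3.29 and 2.72, so the last 2 also had fewer reads. Pseudogenes named after members number 98 in RefSeq, for 41 of the 76 genes, and the sources used here do not give how reads shared with them were assigned.

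The cytosolic ribosomal protein genes, which build the ribosome outside mitochondria, showed still fewer regions: 4 of 80 measured (5%, 1.38 to 12.3), with a median score of 0.95 and a median ratio of -0.40. Nuclear genes of the respiratory chain and ATP synthase held regions in 5 of 80 (6.25%, 2.06 to 13.99), with medians of 0.80 and -0.17. Both intervals lie below that of the mitochondrial ribosomal proteins, 17.99 to 39.1. The difference in regions was not tested. The cytosolic genes were covered at a median of 131 and spanned 18 windows. Those of the respiratory chain and ATP synthase stood at 16.5 and 20 windows, and the mitochondrial ribosomal proteins at 7.80 and 27.5. The part of length and coverage in the difference was not tested.

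Among other genes of mitochondrial translation, the assembly factors and ribosomal RNA enzymes carried regions most often. The 3 lists were drawn up with earlier results of these data known. Of 50 such genes on them 46 were measured and 28 held a region (60.9%, 45.4 to 74.9), against 44.2% of all measured genes. Their median score was 2.62 and their median ratio 1.23. These genes are longer than the members, with a median of 45 windows. They were also less deeply covered, at a median input of 4.01 against 7.80 in the members. Their difference from the members was not tested, nor was the part of length and coverage in it. Assembly factors and ribosomal RNA enzymes held regions in 18 of 22 (81.8%, 59.7 to 94.8), with a median of 41.5 windows. The measured ones ranged from 17 windows in MALSU1 to 146 in FASTKD2. Of all measured genes, 34.0% held a region at 31 to 50 windows and 60.7% at 51 to 159. The part of length in this difference was not tested. RNMTL1, which methylates the large ribosomal RNA, scored 5.16, with 406 in the IP and 6.63 in the input at its peak. The pseudouridine synthases RPUSD4 and TRUB2 scored 4.99 and 4.69, the RNA-binding FASTKD2 4.48, and ERAL1, a chaperone of the small ribosomal RNA, 3.93. RBFA stood at 3.65, the helicases DHX30 and DDX28 at 3.32 and 2.77, the GTPases GTPBP5, NOA1 and MTG1 at 2.95, 2.84 and 2.10, and the RNA methyltransferases MRM1, FTSJ2 and NSUN4 at 2.82, 2.61 and 2.43. The others with a region were MTERFD2 at 3.26, MPV17L2 at 2.66, MTERFD1 at 2.63, and NGRN at 2.03. TFB1M, YBEY, METTL17 and MALSU1 held none, with MALSU1 lowest at 1.05.

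Of 7 ribosomal proteins that do not carry an MRPL or MRPS symbol 3 held a region (42.9%, 9.90 to 81.6), near the 44.2% of all measured genes. They were DAP3 at 3.50, MRP63 at 3.40 and PTCD3 at 2.09, and ICT1, a ribosome rescue factor built into the large subunit, was lowest at 0.86. Of 17 translation factors and partners 7 did (41.2%, 18.4 to 67.1), also near that background and overlapping the members' interval. TSFM, the exchange factor of the elongation factor TUFM, scored 5.29, with 405 in the IP and 8.81 in the input, whereas TUFM scored 1.02, with 23.4 and 15.5. GFM1, the translocation factor, scored 4.59, PDF, which removes formyl groups from new peptides, 4.46, TACO1 4.30 and OXA1L, the inner-membrane insertase, 3.92, followed by RMND1 at 3.32 and C12orf65, a release factor homologue, at 2.95. SLIRP, a partner of LRPPRC in mRNA stability, was lowest at 0.01.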

How the data were processed

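The deposited table gives, per the file headers, for each window of each exon the input and IP coverage and a log2 window score. Per the submitters' processing notes, TopHat 1.1.3 and hg19 were used. The deposited coverage is a scaled signal in whole steps, each of 1 base of a read in a window. Read numbers were recovered from these steps. The authors' log2 score was recomputed from the coverage without a mismatch over 1e-09. Windows of 100 nt each 50 nt were read from isolated 36 nt reads. Whether coverage was counted by strand is not given in the sources used here, so overlapping genes cannot be told apart.

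Members and gene lists were chosen with earlier results of these data known. Named genes were members with a region or an enriched window, the 5 highest scores without a region, the 3 lowest scores, the 3 highest and lowest by input and by ratio, the MRPS18 paralogs and, on the other lists, genes with a region and the highest and lowest scores. Shares have exact (Clopper-Pearson) 95% intervals. Score and ratio intervals came from read numbers, with gene medians taken as fixed. The score interval was checked on simulated data for 2 neighbouring windows set in advance. The ratio interval was not checked in this way. Cytosolic ribosomal protein genes and those of the respiratory chain and ATP synthase were chosen by symbol. Python 3.11.15 with pandas 2.3.3 and scipy 1.17.1 computed all values. Thresholds, the value added, centring, listing and input minimum were varied. Promoters are on GRCh38.p14, and the table has no coordinates.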

Additional observations from a re-analysis of the deposited data

How the results depend on the processing

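The 21 members with a region became 44 at a score threshold of 1, 6 at a threshold of 3 and 6 when at least 4 windows were required, where all measured genes went from 44.2% to 71.4%, 26.0% and 30.95%. Under the 8 other settings tried the count was 15 to 25. The 15 came from adding 5 in place of 1, which lost MRPL10, MRPL15, MRPL41, MRPL43, MRPL45 and MRPS31. An input of at least 5 left 57 members, 17 with a region (29.8%), against 34.1% of all genes. Without this limit the shares were 27.6% and 44.2%, so the share of all genes changed more than that of the members. The cause was not tested. The median score ranged from 1.01 to 1.61. The median whole-transcript ratio of 0.28 turned to -0.065 with median coverage and was 0.36, above the 0.16 of all genes, at an input of at least 5; the cause was not tested. The share of enriched windows of 3.53% was 10.5% at a threshold of 1, 0.832% at 3 and 6.10% where windows under an input of 5 were left out, against 13.4%, 2.38% and 8.60% over all genes. The 28 other genes of mitochondrial translation with a region became 15 at a threshold of 3. With 1 library of each kind, no replicate could be left out and counting intervals hold no biological or preparation error. No paired analysis was possible because each group has 1 library. Weakly covered members such as MRPL1 (input 1.19) and MRPL43 had wide counting intervals of their scores, 0.39 to 1.29 and 1.84 to 2.54. The effect of depth on the calls was not tested.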
